A study of Mus musculus with 9 samples.

Results

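The early B lymphoid genes described here are 10 genes of the first steps of B cell development: Vpreb1, Igll1, Cd79a, Cd79b, Rag1, Dntt, Il7r, Blnk, Ebf1 and Pax5. They were taken by gene symbol from the array annotation, with the probe of highest mean standing for a gene, and all 10 had a probe among 36413 gene names on the array. RNA was measured on 9 one-colour Agilent arrays in LSK cells (lineage-negative, Sca1+ cKit+), a sort of bone marrow rich in blood stem cells and early progenitors. The arrays form 3 groups of 3: control cells, Drosha fl/fl cells and Dicer fl/fl cells, all from female mice of the strain Gt(ROSA)26Sor CreERT2. The controls thus carry the same Cre, a fusion that tamoxifen switches on, expressed from the broadly active Rosa26 locus. Cells of every group were cultured for 72 h at 50000 cells per well in 10% serum with 10 ng/mL IL-3, 10 ng/mL IL-6, 50 ng/mL stem cell factor and 250 nM 4OH-tamoxifen, so the profiles describe cultured progeny of the sort rather than fresh LSK cells. The sources used here give no age of the mice. Nothing in the labels says that the 3 repeats of a group came from separate animals, so p-values measure the spread between these samples only. The design asks how loss of Drosha or of Dicer, the nucleases that act one after the other in making microRNAs, changes the RNA of these cells.

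Early B cell precursors arise from lymphoid-primed progenitors that carry the IL-7 receptor. The factors EBF1 and PAX5, working downstream of the E proteins and of PU.1, switch on the genes of the pre-B cell receptor. Before the immunoglobulin light chain is rearranged, the heavy chain pairs with a surrogate light chain made of VPREB1 and IGLL1. The complex signals through CD79A and CD79B, which recruit the adaptor BLNK. RAG1 cuts the antigen receptor genes for rearrangement, and DNTT, the terminal transferase, adds bases without a template at the joints. Multipotent progenitors can transcribe some of these genes at low level before they commit, a state called lymphoid priming.

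The sequences of this set bear on what the probes measure and on how 2 pairs of genes that rose and fell together across the arrays are laid out. Igll1 and Cd79a gave dim signals, so their 60-base probes are shown first. The Igll1 probe lies on the minus strand at chr16:16861104-16861163 of mm9. The Cd79a probe, on the plus strand, is placed over 258 bases of chr7:25684357-25684614, more than its own length.
Igll1 probe: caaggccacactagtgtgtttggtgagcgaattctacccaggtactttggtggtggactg
Cd79a probe: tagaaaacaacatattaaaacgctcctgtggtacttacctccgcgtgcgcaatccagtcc

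The 250 bases before the RefSeq start of Vpreb1, Igll1, Il7r and Blnk follow, because the levels of Vpreb1 and Igll1, and those of Il7r and Blnk, moved together. They are printed 5′ to 3′ on the gene's strand from the GRCm38.p6 assembly, and the last base is next to the start. Capitals mark matches, on either strand, to the E2A E-box CAGGTG, the PU.1 motif GAGGAA, the RUNX motif TGTGGT or the EBF1 core CCCNNGGG. The windows lie on the minus strand at chr16:16869256-16869505 for Vpreb1, chr16:16863986-16864235 for Igll1, chr15:9529877-9530126 for Il7r and chr19:40994222-40994471 for Blnk.
Vpreb1 promoter: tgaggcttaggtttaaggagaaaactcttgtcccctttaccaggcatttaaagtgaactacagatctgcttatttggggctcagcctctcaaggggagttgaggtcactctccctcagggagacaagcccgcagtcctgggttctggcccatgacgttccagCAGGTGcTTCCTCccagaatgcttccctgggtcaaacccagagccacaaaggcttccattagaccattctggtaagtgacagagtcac
Igll1 promoter: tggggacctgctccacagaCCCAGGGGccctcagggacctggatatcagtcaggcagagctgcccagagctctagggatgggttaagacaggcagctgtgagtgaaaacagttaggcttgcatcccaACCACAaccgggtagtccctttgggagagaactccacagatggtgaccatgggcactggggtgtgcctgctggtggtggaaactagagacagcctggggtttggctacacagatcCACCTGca
Il7r promoter: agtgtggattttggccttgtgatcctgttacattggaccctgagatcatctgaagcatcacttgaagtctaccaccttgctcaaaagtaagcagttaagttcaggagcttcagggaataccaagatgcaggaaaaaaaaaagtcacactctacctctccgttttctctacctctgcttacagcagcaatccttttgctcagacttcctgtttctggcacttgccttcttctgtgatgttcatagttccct
Blnk promoter: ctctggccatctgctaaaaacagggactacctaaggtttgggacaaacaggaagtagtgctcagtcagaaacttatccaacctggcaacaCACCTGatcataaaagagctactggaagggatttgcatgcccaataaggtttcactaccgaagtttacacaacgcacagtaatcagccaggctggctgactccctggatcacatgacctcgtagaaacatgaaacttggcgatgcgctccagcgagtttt

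Vpreb1 and Igll1, which lie on the same strand of chromosome 16, each had 1 E-box, beginning 88 and 8 bases before the start. In the Vpreb1 window the E-box is followed closely by a PU.1 match at 81 bases. The Igll1 window also held an EBF1 core at 231 bases and a RUNX match at 123 bases. Blnk had an E-box at 160 bases and no other match, and Il7r had no match to any motif searched. Over the 9 genes with a promoter entry, all but Cd79b, the E-box was found in 5 (Vpreb1, Igll1, Blnk, Cd79a and Rag1), while 17.2% of 32851 windows of the same length held it. PU.1 matches were found in 3 genes (Vpreb1, Cd79a and Ebf1) against 23.3% of windows, and RUNX matches in 3 (Igll1, Rag1 and Ebf1) against 14.0%. Ebf1 had its RUNX match in the window at chr11:44617850-44618099 and its PU.1 match in another, at chr11:44619978-44620227. A gene was counted if any of its windows matched, whereas the percentages are per window, so the units differ for Ebf1. The EBF1 core was found in 1 gene against 11.8% of windows, and the longer EBF1 palindrome, which is the core with T before it and A after it, in 0 genes against 0.779%. Each such match is a description of letters in the window and not of a bound site.

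The deleted genes and the arrays were checked before the levels were compared. All levels below are the authors' normalised log2 values, given as mean ± SD over 3 arrays, and differences are between group means on that scale. Drosha was at 11.92 ± 0.10 in control, 9.01 ± 0.27 after Drosha deletion and 12.03 ± 0.11 after Dicer deletion. Dicer1 was at 10.29 ± 0.32, 10.44 ± 0.41 and 9.05 ± 0.11 in the same order, so each deleted gene was lower in its own group. The sorting markers Kit and Ly6a, which encodes Sca1, were well above background on all 9 arrays. Control replicate 2 stood apart in its scanner file, where 93.2% of probes were well above background against 54.2% to 62.3% on the other 8 arrays, so its detection flags carry little information. The authors' values of control replicates 2 and 3 stood apart from the other 7 columns: the SD of the differences between probes was 0.29 for that pair, 0.27 to 0.46 among the other 7 and 0.54 to 0.69 between the 2 sets. Control replicate 3 was also hybridised on another slide than the other 8 arrays. For this reason the differences of the tested members from control are also given against control replicate 1 alone. So are the Drosha-deleted differences of the named transcription factors, signalling genes, other B cell genes, Cd4, Lat and Cd14.

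Of the 10 genes, 7 were well above background in every replicate of some group and were tested: Vpreb1, Igll1, Cd79a, Cd79b, Dntt, Il7r and Blnk. Cd79a passed through the deletion groups alone, since it was not well above background in control replicate 3, and Igll1 passed through the control group alone. Both thus passed through a group in which they were higher, and their differences are given as values rather than as support for a direction. None of the 7 passed an adjusted p of 0.05 in limma with Benjamini-Hochberg adjustment over 23020 genes, in any of the 3 comparisons. In Drosha-deleted against control cells 0 of 7 were called, where 0.169% of all genes were, and 1 of 7 (14.3%) had an unadjusted p under 0.05, as did 26.9% of all genes. In Dicer-deleted against control cells 0 of 7 were called against 0.0174% of all genes, and 2 of 7 (28.6%) had an unadjusted p under 0.05, as did 21.9% of all genes. Between the deletions 0 of 7 were called against 0.0565% of all genes, and 0 had an unadjusted p under 0.05, where 5.66% of all genes did. At these background shares a count of 0 among 7 genes says little by itself, and the sizes and intervals of the differences are given gene by gene. The median difference of the 7 tested genes was -0.16 after Drosha deletion and -0.24 after Dicer deletion, each against control, beside medians of -0.0022 and -0.0018 over all tested genes. Both medians of the 7 are the values of Igll1, which passed through the control group alone. Against control replicate 1 alone Igll1 differed by 0.31 and 0.23, so these medians give no direction for the set. In bulk RNA fewer cells of a type and less RNA per cell cannot be told apart.

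**Figure D1:**
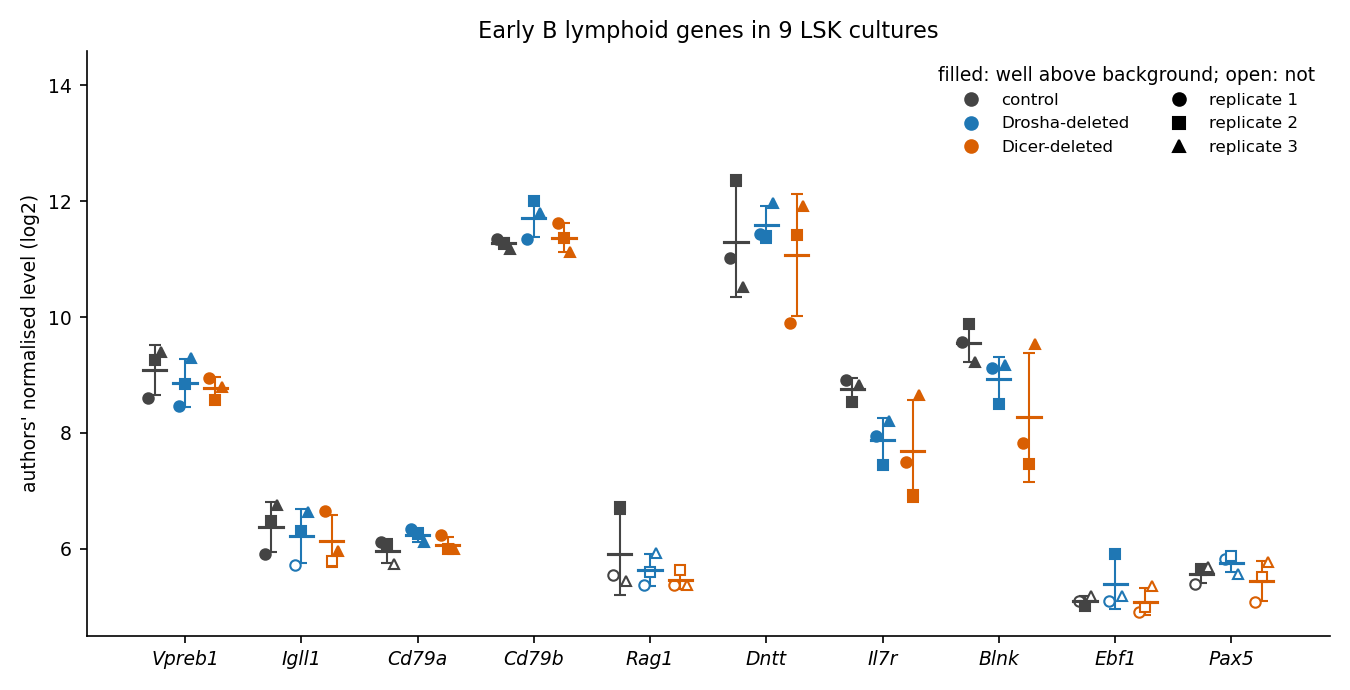
Authors' normalised log2 level (vertical axis) of each of the 10 genes on the 9 arrays, by group (colour) and replicate (symbol). Horizontal bars are group means, vertical bars 1 SD over 3 arrays, and open symbols were not well above background. Il7r and Blnk show all 3 Drosha-deleted arrays below all 3 controls, and Dicer-deleted replicate 3 near the controls. Levels of different genes come from different probes and are not comparable.

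Il7r, the alpha chain of the IL-7 receptor, which early lymphoid progenitors need to respond to IL-7, showed the largest difference of the set in Drosha-deleted cells. Its probe lies at chr15:9435976-9436035 (minus strand) of mm9. Its level was 8.91, 8.54 and 8.82 in control replicates 1 to 3. It was 7.95, 7.45 and 8.21 in the Drosha-deleted arrays and 7.50, 6.92 and 8.66 in the Dicer-deleted arrays. All 3 Drosha-deleted arrays were below the lowest control. In the Dicer-deleted group replicates 1 and 2 were below it and replicate 3 was among the controls. The Drosha-deleted mean was 1.85-fold lower than control, a difference of -0.88 (SE 0.39, 95% interval -1.77 to 0.00) with a limma adjusted p of 0.186. The Dicer-deleted mean was 2.09-fold lower, a difference of -1.06 (SE 0.39, interval -1.95 to -0.18) with an unadjusted p of 0.0237 and a limma adjusted p of 0.188. The group means were thus in the order control, Drosha-deleted, Dicer-deleted, with neither neighbouring pair past the threshold. The deletions differed by 0.18 (SE 0.39, limma adjusted p 0.999).

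Blnk, the adaptor that carries the signal of the pre-B cell receptor to phospholipase C, showed the largest difference in Dicer-deleted cells. Its probe lies at chr19:41003426-41003485 (minus strand). Its level was 9.57, 9.88 and 9.22 in control replicates 1 to 3. It was 9.13, 8.50 and 9.17 in the Drosha-deleted arrays and 7.82, 7.46 and 9.54 in the Dicer-deleted arrays. As for Il7r, the 3 Drosha-deleted arrays and Dicer-deleted replicates 1 and 2 were below the lowest control, while Dicer-deleted replicate 3 was not. The Dicer-deleted mean was 2.43-fold lower than control, a difference of -1.28 (SE 0.48, interval -2.37 to -0.19) with an unadjusted p of 0.0261 and a limma adjusted p of 0.190. The Drosha-deleted mean was 1.54-fold lower, a difference of -0.62 (SE 0.48, interval -1.71 to 0.47, limma adjusted p 0.418). The deletions differed by 0.66 (SE 0.48, interval -0.43 to 1.75, limma adjusted p 0.999), so the order control, Drosha-deleted, Dicer-deleted is an order of means only.

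Il7r and Blnk were 2 of the 7 genes whose Drosha-deleted arrays all lay below all controls, a pattern that 10.5% of all tested genes showed. In Dicer-deleted cells 0 of 7 were fully below the controls, where 9.95% of all genes were. Both results were as large without the controls that stood apart. Against control replicate 1 alone the Drosha-deleted difference was -1.04 for Il7r and -0.63 for Blnk, and the Dicer-deleted difference was -1.22 and -1.29. All 3 arrays of either deletion were below control replicate 1 for both genes. With that single control the limma adjusted p was 0.999 for Drosha-deleted cells and 1.00 for Dicer-deleted cells, where the lone control is assumed to vary like the other groups. On the slide that held the 8 arrays other than control replicate 3, the differences were -0.85 for Il7r and -0.79 for Blnk in Drosha-deleted cells and -1.03 and -1.45 in Dicer-deleted cells. Without Dicer-deleted replicate 3 the Dicer-deleted differences were -1.54 for Il7r (limma adjusted p 0.182) and -1.91 for Blnk (limma adjusted p 0.137), and without Dicer-deleted replicate 2 they were -0.68 (limma adjusted p 0.403) and -0.87 (limma adjusted p 0.409). Over the 20 alternatives run, the limma adjusted p in Dicer-deleted cells ranged from 0.140 to 1.00 for Il7r and from 0.128 to 1.00 for Blnk, and the differences from -1.54 to -0.15 and from -1.91 to -0.87. For Il7r the smallest Dicer-deleted differences came from the scanner values with the file of control replicate 2, at -0.56 relative to the 75th percentile and -0.15 with normexp. Over the same alternatives the Drosha-deleted difference ranged from -1.07 to 0.00 for Il7r and from -0.96 to -0.40 for Blnk, with limma adjusted p from 0.135 to 0.999 and from 0.175 to 0.999. The 0.00 for Il7r came with normexp-corrected scanner values. In the scanner file of control replicate 2 Il7r was -2.98 relative to the array's 75th percentile, against -0.49 and -0.79 in control replicates 1 and 3. On that scale the file also moved the median Drosha-deleted difference of all genes, which was 0.36 with it and -0.02 without it.

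**Figure D2:**
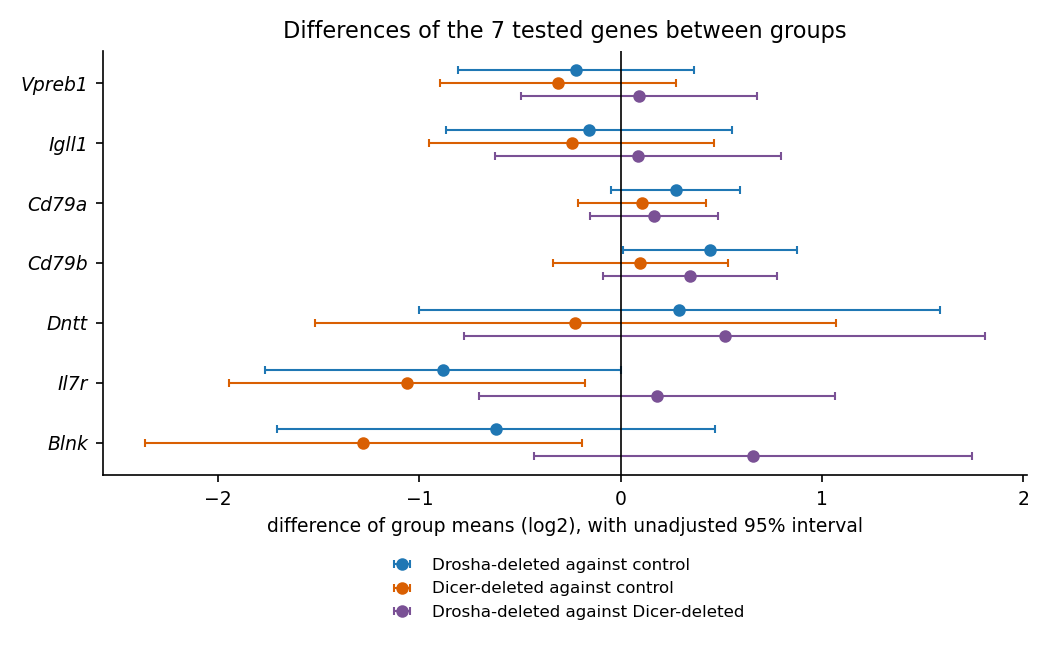
Difference of group means (horizontal axis, log2) with its unadjusted 95% interval from limma for the 7 tested genes (vertical axis) in the 3 comparisons (colour). Intervals of Il7r and Blnk against control in Dicer-deleted cells, -1.95 to -0.18 and -2.37 to -0.19, lie below 0, and that of Cd79b in Drosha-deleted cells lies above it, yet no gene passed an adjusted p of 0.05.

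The 2 signalling chains of the receptor differed less. Cd79b, with its probe at chr11:106172780-106172839 (minus strand), was well above background on all arrays, at 11.36, 11.28 and 11.18 in control replicates 1 to 3. It was 11.34, 12.01 and 11.80 in the Drosha-deleted arrays and 11.63, 11.36 and 11.13 in the Dicer-deleted arrays. Drosha-deleted replicates 2 and 3 were above every other array, while replicate 1 was within the controls. The Drosha-deleted mean was 1.36-fold higher than control, a difference of 0.44 (SE 0.19, interval 0.01 to 0.88) with an unadjusted p of 0.0456 and a limma adjusted p of 0.178. Dicer-deleted cells differed from control by 0.10 (SE 0.19, interval -0.33 to 0.53, limma adjusted p 0.776). Against control replicate 1 alone Cd79b differed by 0.36 in Drosha-deleted and by 0.01 in Dicer-deleted arrays. The 2 deletions differed by 0.35 (SE 0.19, limma adjusted p 0.977).

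Cd79a was dim and nearly flat, at 6.11, 6.05 and 5.73 in control replicates 1 to 3. It was 6.34, 6.26 and 6.11 in the Drosha-deleted arrays and 6.23, 5.99 and 5.99 in the Dicer-deleted arrays. The 3 Drosha-deleted arrays were all above the controls, though the lowest, at 6.11, was hardly above control replicate 1. The share of all tested genes with this pattern was not counted, and Cd79a passed the filter through the deletion groups. The pattern is thus given as values only. The difference was 0.27 in Drosha-deleted cells (SE 0.14, interval -0.05 to 0.59, limma adjusted p 0.239), and 0.13 against control replicate 1 alone. In Dicer-deleted cells it was 0.11 (SE 0.14, interval -0.21 to 0.43, limma adjusted p 0.662), and -0.04 against control replicate 1 alone.

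The surrogate light chain genes showed smaller differences than their spread. The Vpreb1 probe lies at chr16:16868559-16868618 (minus strand), and Vpreb1 was at 8.60, 9.26 and 9.40 in control replicates 1 to 3, at 8.46, 8.85 and 9.29 in the Drosha-deleted arrays and at 8.95, 8.58 and 8.80 in the Dicer-deleted arrays. Igll1, its partner, was at 5.91, 6.48 and 6.75 in control, at 5.72, 6.30 and 6.63 in Drosha-deleted and at 6.65, 5.80 and 5.96 in Dicer-deleted arrays. The 3 groups overlapped for both genes. Vpreb1 differed from control by -0.22 in Drosha-deleted (SE 0.26, interval -0.81 to 0.37, limma adjusted p 0.597) and by -0.31 in Dicer-deleted cells (SE 0.26, interval -0.90 to 0.27, limma adjusted p 0.480). Igll1 differed by -0.16 (SE 0.31, interval -0.87 to 0.55, limma adjusted p 0.764) and by -0.24 (SE 0.31, interval -0.95 to 0.47, limma adjusted p 0.654). These signs rested on control replicates 2 and 3. Against control replicate 1 alone the differences turned to 0.26 and 0.17 for Vpreb1 and to 0.31 and 0.23 for Igll1. Igll1 was well above background on 7 of 9 arrays, missing Drosha-deleted replicate 1 and Dicer-deleted replicate 2, which were its 2 lowest arrays.

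Dntt, which is among the first lymphoid genes to be transcribed in progenitors, varied more between arrays than between groups. Its probe lies at chr19:41133936-41133995 (plus strand). It was at 11.02, 12.38 and 10.52 in control replicates 1 to 3, at 11.43, 11.39 and 11.97 in the Drosha-deleted arrays and at 9.90, 11.42 and 11.92 in the Dicer-deleted arrays. The highest array was control replicate 2 and the lowest Dicer-deleted replicate 1, which were 2.48 apart on the log2 scale, a 5.57-fold range. In the scanner values, relative to the array's 75th percentile, Dntt was at 1.44 in control replicate 2, 1.76 in control replicate 1 and 1.46 in control replicate 3. The file of control replicate 2 is shifted on this scale. With it the median Drosha-deleted difference of all genes was 0.36, and without it -0.02. These scanner values thus cannot tell whether Dntt was high in control replicate 2. The difference from control was 0.29 in Drosha-deleted (SE 0.57, interval -1.001 to 1.585, limma adjusted p 0.761) and -0.23 in Dicer-deleted cells (SE 0.57, interval -1.52 to 1.07, limma adjusted p 0.832). Against control replicate 1 alone these were 0.58 and 0.06, so the Dicer-deleted sign turned. Intervals this wide hold changes of over 1 log2 unit either way.

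Dntt, Il7r and Blnk were among the most variable genes of these arrays. The range over the 9 arrays of Dntt, Il7r and Blnk was larger than that of 98.3%, 95.9% and 98.1% of tested genes. The ranges of Vpreb1, Igll1, Cd79a and Cd79b, at 0.95, 1.03, 0.60 and 0.88, were nearer the median range of 0.79 over all tested genes. Within the Dicer-deleted group the SD was 1.05 for Dntt, 0.88 for Il7r and 1.11 for Blnk, where the median gene had 0.15.

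Rag1, Ebf1 and Pax5 were not measurable by the same rule and were not tested. Leaving aside control replicate 2, whose flags carry little information, the Rag1 probe was well above background on 0 of 8 arrays, Pax5 on 0 of 8 and Ebf1 on 1 of 8, Drosha-deleted replicate 2. The probes lie at chr2:101478813-101478872 (minus strand), chr11:44818438-44818497 (plus strand) and chr4:44658421-44658480 (minus strand), in the order Rag1, Ebf1 and Pax5. For each of these genes the values give only a bound, not a level. Rag1 stood at 5.90 ± 0.71 in control, 5.64 ± 0.28 after Drosha deletion and 5.46 ± 0.15 after Dicer deletion, where the control SD comes from 6.71 in control replicate 2 against 5.54 and 5.45 in the other two. Ebf1, the factor that opens the B lineage programme, stood at 5.10 ± 0.09, 5.40 ± 0.44 and 5.09 ± 0.24. Pax5, which commits cells to that lineage, stood at 5.57 ± 0.16, 5.76 ± 0.16 and 5.45 ± 0.35. The second probes of Rag1 and Pax5 were each well above background on 1 of 9 arrays. RNA of the surrogate light chain and of both CD79 chains was thus above background on most arrays, while that of EBF1 and PAX5 was not.

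2 pairs of the set moved together from array to array. Over the 9 columns Pearson's r was 0.92 between Vpreb1 and Igll1 and 0.90 between Il7r and Blnk. The other 19 of 21 pairs lay between -0.53 and 0.57, with a median over all 21 of 0.06. After each group's mean was taken off, r was 0.92 and 0.89, and without control replicates 2 and 3 (7 columns) it was 0.91 and 0.94. In the scanner values of the 8 arrays other than control replicate 2 it was 0.90 and 0.92. These are descriptions over columns that share arrays and normalisation. The best partner of a tested gene had a median r of 0.98 over 23020 genes. An r near 0.9 with some other gene is thus common with so few columns. That value is a maximum over many partners and does not tell how often a given pair reaches 0.9. The share over pairs of all tested genes was not counted. The probe of Vpreb2, the near copy of Vpreb1, is annotated to both genes and had r of 0.56 with Vpreb1 and 0.41 with Igll1. Signal of the 2 copies cannot be told apart on it, whereas the Vpreb1 probe lists Vpreb1 alone.

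**Figure D3:**
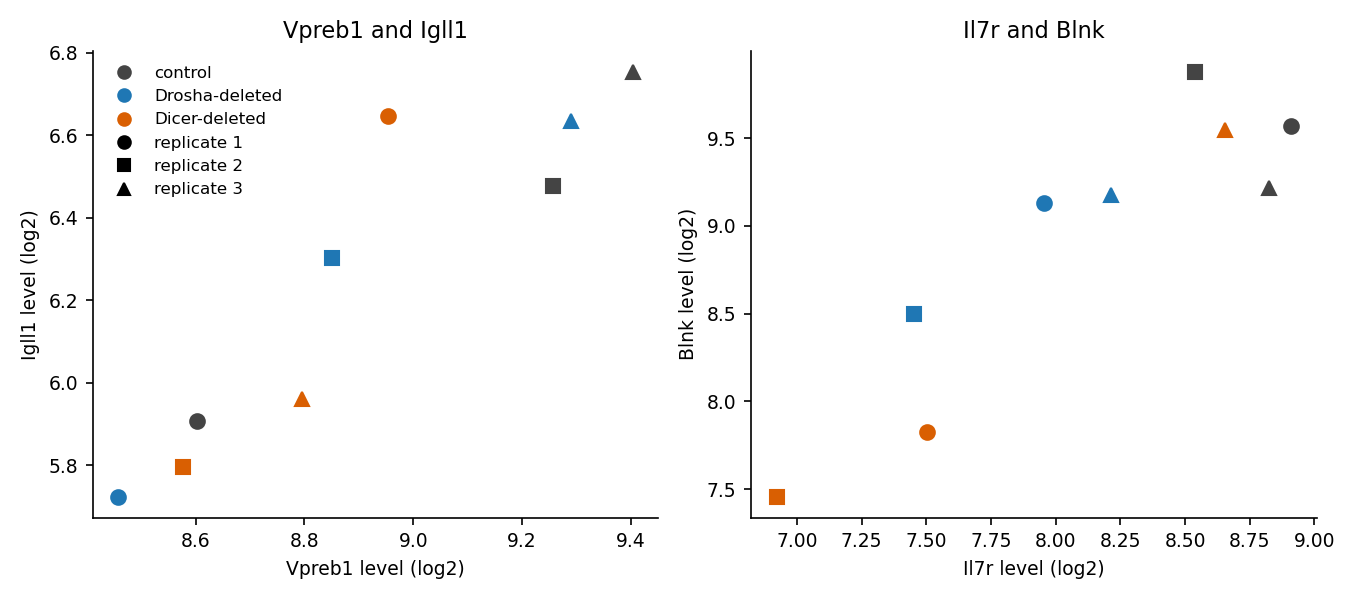
Authors' log2 level of Igll1 against Vpreb1 (left) and of Blnk against Il7r (right), 1 point per array, with colour for the group and symbol for the replicate. Vpreb1 and Igll1 line up without separating the groups (r = 0.92), while in the right panel Dicer-deleted replicates 1 and 2 are lowest in Blnk and Dicer-deleted replicate 3 lies among the controls (r = 0.90).

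Outside the set, the gene whose values ran most like those of a member over the 9 columns was Fblim1 for Il7r (r = 0.97), Atp6v0d2 for Blnk (r = 0.95), Il11ra1 for Igll1 (r = 0.96) and Gm11849 for Vpreb1 (r = 0.97). It was Pccb for Cd79b (r = 0.96), Gm7273 for Cd79a (r = 0.94) and Gm9510 for Dntt (r = 0.86). Each of these is below the median best r of all genes, 0.98.

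Genes that work with these members were described by list. Of 22 transcription factors of lymphoid priming and the B lineage, 20 were tested and 0 passed the limma threshold in any comparison. Their median difference was -0.12 after Drosha deletion and -0.19 after Dicer deletion, each against control,. The smallest adjusted p belonged to Tcf12, which encodes the E protein HEB, at 11.08 ± 0.72, 10.14 ± 0.08 and 10.21 ± 0.03 in control, Drosha-deleted and Dicer-deleted cells. Its difference was -0.94 (SE 0.30, limma adjusted p 0.120) and -0.88 (SE 0.30, limma adjusted p 0.177). Against control replicate 1 alone, at 10.25 where the other controls were at 11.53 and 11.47, it was -0.11 and -0.05. Ikzf3, which encodes Aiolos, differed by 0.66 in Drosha-deleted cells (SE 0.26, limma adjusted p 0.152), and by 0.32 from control replicate 1. Lef1 and Pou2af1 were not tested because of low signal.

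Of 18 genes of B cell receptor signalling, 15 were tested and 0 were called, with medians of -0.0024 after Drosha deletion and 0.14 after Dicer deletion. Blk, a kinase of the SRC family, and Bank1, a scaffold protein of B cells, were not well above background on all arrays of any group. Syk, the kinase that CD79 chains recruit, differed by 0.50 in Drosha-deleted cells (SE 0.21, limma adjusted p 0.165), and by 0.27 from control replicate 1. Vav1, a signalling protein of all blood cells, differed by -0.36 (SE 0.13, limma adjusted p 0.140) and -0.37 (SE 0.13, limma adjusted p 0.184) from control, and by -0.12 and -0.14 from control replicate 1.

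The 13 genes of IL-7, FLT3 and TSLP receptor signalling were all tested and 0 were called. Flt3, the receptor that marks lymphoid-primed progenitors, stood at 10.81 ± 0.15 in control, 11.55 ± 0.23 after Drosha deletion and 10.64 ± 0.25 after Dicer deletion. Its difference was 0.73 in Drosha-deleted cells (SE 0.17, limma adjusted p 0.0915), or 0.87 from control replicate 1, and between the deletions it was 0.91 (SE 0.17, limma adjusted p 0.209). Its Drosha-deleted difference thus had the opposite sign to that of Il7r. Cish, a target of STAT5 downstream of cytokine receptors, differed by 0.67 in Drosha-deleted cells (SE 0.22, limma adjusted p 0.122), and by 0.66 from control replicate 1. The log2 of the list's summed level was 15.85 to 15.90 in control, 16.04 to 16.13 in Drosha-deleted and 15.90 to 15.93 in Dicer-deleted arrays. The Drosha-deleted sums thus lay above the others, but such a sum weighs bright probes most. The brightest was Crlf2, at 14.21 ± 0.12 in control and 14.38 ± 0.10 after Drosha deletion, followed by Cish, at 13.10 ± 0.27 and 13.77 ± 0.26. Of the 13 genes, 8 were higher and 5 lower than control after Drosha deletion. The list's median was 0.07 after Drosha deletion and 0.03 after Dicer deletion.

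Of 22 other early and mature B cell genes, 18 were tested and 0 were called, with medians of -0.02 and -0.17. Bst1, a surface ectoenzyme named for bone marrow stromal cells and carried by early B and myeloid cells, differed by -1.34 in Drosha-deleted cells (SE 0.33, limma adjusted p 0.0918) and by -0.57 in Dicer-deleted cells (SE 0.33, limma adjusted p 0.317). Its Drosha-deleted difference was -1.75 from control replicate 1. Fcer2a, the low-affinity IgE receptor of mature B cells, differed by 0.51 in Drosha-deleted cells (SE 0.13, limma adjusted p 0.0967), and by 0.28 from control replicate 1. Ms4a1 (CD20), Mme and Faim3 were well above background on 0 of 8 arrays without control replicate 2.

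**Figure D4:**
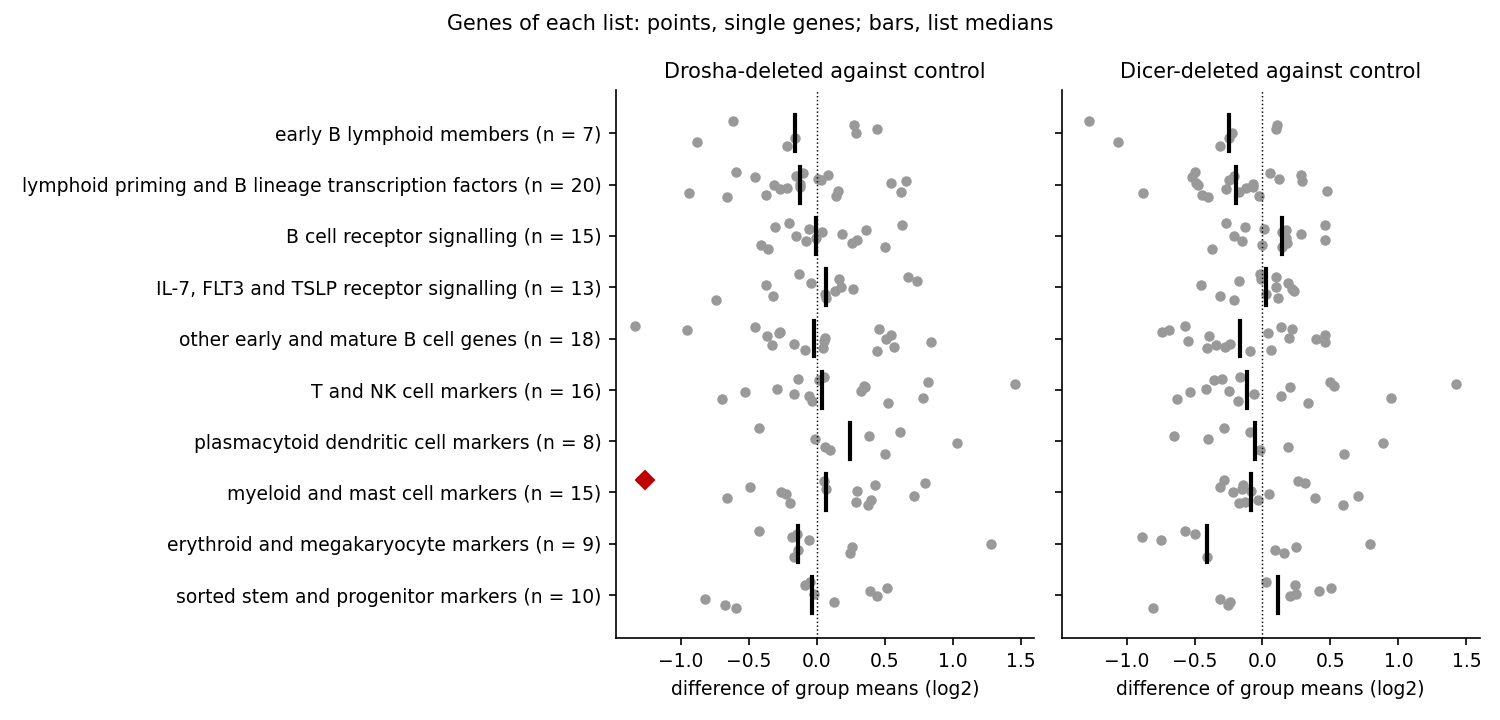
Difference of group means (horizontal axis, log2) of each tested gene (points) by gene list (vertical axis, with the number tested), for Drosha-deleted against control cells (left) and Dicer-deleted against control cells (right). Black bars are list medians and the red diamond is Cd14, at -1.26, the one gene of these lists with an adjusted p under 0.05.

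Markers of other lineages were above background in all groups. Of 21 T and NK cell markers 16 were tested and 0 were called, with medians of 0.04 and -0.11. Cd3d, Cd3g and Cd8a, which define T cells, were well above background on at most 1 of 8 arrays without control replicate 2, while Cd3e and Cd4 were so on all. The log2 of the summed level of the 16 markers was 15.79 to 16.09 in control, 15.42 to 16.27 in Drosha-deleted and 15.45 to 16.45 in Dicer-deleted arrays. It thus overlapped between groups, and Dicer-deleted replicate 3, which was high in Il7r and Blnk, had the lowest sum of its group at 15.45. This sum weighs bright probes most, and the brightest was Thy1, at 15.03 ± 0.45, 14.99 ± 1.07 and 14.85 ± 1.04. It is therefore not a measure of T or NK cell content. For 8 of 10 markers of plasmacytoid dendritic cells, which transcribe several early B genes themselves, the sum was 16.67 to 17.00, 16.80 to 17.20 and 16.78 to 16.95, with 0 called. For 15 of 15 myeloid and mast cell markers it was 18.86 to 19.35, 19.16 to 19.52 and 18.48 to 19.40. There Cd14, the lipopolysaccharide co-receptor of monocytes, fell by 1.26 in Drosha-deleted cells (SE 0.16, limma adjusted p 0.0300, lower in 3 of 3 arrays), and was -1.15 from control replicate 1.

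The summed level of 9 of 10 erythroid and megakaryocyte markers was 18.56 to 18.65 in control, 18.34 to 18.53 in Drosha-deleted and 18.08 to 18.33 in Dicer-deleted arrays, without overlap. This sum was mostly the signal of 1 probe, that of Pf4, a platelet chemokine, at 18.41 ± 0.02, 18.24 ± 0.12 and 18.00 ± 0.13. Without Pf4 the sum of the other 8 was 15.40 to 15.87, 15.50 to 15.80 and 15.28 to 15.46. The control range then overlapped that of either deletion, while the Dicer-deleted sums still lay below all Drosha-deleted sums. None of the 9 was called, with 3 of 9 higher than control after Drosha deletion and 4 of 9 after Dicer deletion. Their median difference was -0.14 after Drosha deletion and -0.41 after Dicer deletion. Differences ran from -0.43 (Epor) to 1.28 (the globin gene Hba-a1) in Drosha-deleted cells. In Dicer-deleted cells they ran from -0.88 (Gp1ba) to 0.79 (Hba-a1). Dicer-deleted replicate 3 had the lowest sum of these markers, with Pf4 or without it, and the highest Il7r and Blnk of its group. The part of these markers in the Il7r and Blnk differences was not tested. Of 11 stem and progenitor markers 10 were tested and 0 were called, and their sums overlapped at 16.23 to 16.48, 15.94 to 16.64 and 16.22 to 16.48.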

How the data were processed

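Per the file headers, the 9 scanner files hold intensity values in Cy3 from Agilent Feature Extraction 10.7.3.1 (protocol GE1_107_Sep09), with probe positions on mm9. The authors' deposited series values are log2 values with nearly equal quantiles in all columns; limma is named in the submitters' processing notes, and their background step is not given in the sources used here. Probes were joined by feature number. Of 55681 probes other than controls, the probe of highest mean stood for each of 36413 gene names. A gene was kept if all 3 arrays of some group flagged that probe well above background, which left 23020 genes. A mean per group was fitted over all 9 arrays with limma 3.58.1 (R 4.3.3), with two-sided moderated tests, Benjamini-Hochberg adjustment and a threshold of 0.05. Intervals are unadjusted at 95%. The number of arrays limits the precision. Alternatives changed the values (scanner signal less its 75th percentile, or normexp with offset 50 and quantile normalisation), the filter, the probe rule, the samples and the blocks. Promoters are RefSeq windows of GRCm38.p6. The fit was tested on simulated data. By rule the text names the 10 genes, Drosha, Dicer1, Kit, Ly6a, called genes of each list or else the 2 with the smallest adjusted p, and the genes most alike; not all are reported, and untested or defining markers were named after their values were seen. Some genes of the lists are not reported here. The values of list genes against control 1 alone and the sum without Pf4 were added after seeing the data. Members and lists were chosen with earlier results of these data known.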

Additional observations from a re-analysis of the deposited data

How the results depend on the processing

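The count of 0 called among the 7 genes held in all 3 comparisons under each of the 20 alternatives, where the smallest limma adjusted p was 0.0943; with genes detected on all arrays, 5 of the 7 were tested. Of 414 differences of these genes under alternatives, 385 kept their direction and 29 changed it. The counts over all genes moved more. From 39, 4 and 13 genes called (Drosha-deleted against control, Dicer-deleted against control, Drosha-deleted against Dicer-deleted) they went to 7, 3 and 2 with scanner values, 1, 0 and 1 with normexp, 10, 4 and 5 with scanner values without the file of control 2, 25, 2 and 10 without a filter, 31, 2 and 9 with genes detected on all arrays, 5, 0 and 11 with only the 2 groups compared, and 13, 3 and 7 with the slide as a block, which drops control 3. With control 1 as the only control, an alternative chosen after seeing the data, they were 38, 21 and 11. Where 0 genes were called in Dicer-deleted against control cells, limma gave 1795 (normexp) and 4022 (2 groups) genes an unadjusted p under 0.05. Leaving out 1 array gave 4 to 7743, 0 to 7020 and 4 to 16 genes; the highest 2 counts came without control replicate 1, which leaves the 2 controls that stand apart.

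With the replicate number as a block, 4, 0 and 5 genes were called (4533 at an unadjusted p under 0.05 in Dicer-deleted against control), and 0 of the 7 genes. Arrays with the same number did not deviate together (r of -0.28 to 0.24 over 9 pairs, against -0.29 to 0.28 over 18 pairs of different number), so the numbers are not taken as pairs.

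Directions turned as follows, with the cause not tested. Scanner values, which shift the median of all genes by 0.36 and 0.38 against control, gave Cd79a -0.21 and Dntt 0.32 in Dicer-deleted cells. Normexp gave Igll1 0.14 and Il7r 0.0022 in Drosha-deleted and Igll1 0.11 in Dicer-deleted cells. Without the scanner file of control 2, Dntt was 0.26 in Dicer-deleted cells. The slide block gave Igll1 0.029 and Dntt -0.10 in Drosha-deleted and Cd79a -0.0080 in Dicer-deleted cells. With control 1 as the only control, Vpreb1 was 0.26 and Igll1 0.31 in Drosha-deleted cells, and Vpreb1 0.17, Igll1 0.23, Cd79a -0.038 and Dntt 0.059 in Dicer-deleted cells. Leaving out 1 array, Drosha-deleted against control ranged from -0.39 to 0.090 for Igll1 and -0.10 to 0.83 for Dntt. Dicer-deleted against control ranged from -0.0080 to 0.18 for Cd79a, -0.029 to 0.22 for Cd79b and -0.65 to 0.37 for Dntt. Between the deletions the ranges were -0.12 to 0.30 for Vpreb1, -0.12 to 0.34 for Igll1, -0.074 to 0.94 for Dntt and -0.21 to 0.66 for Il7r.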
